A study of Mus musculus with 9 samples.

Results

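The homeostatic astrocyte genes described here are 38 genes that carry out or mark the supporting work of astrocytes, the star-shaped glia of the brain. They were chosen by name, with earlier results of these data known. They are the rows of the deposited hippocampal RNA table whose symbol is listed and whose mean over the 9 libraries was at least 10. All 38 of 38 listed genes met this, out of 18275 genes in the table and 16196 that met the same minimum and were tested. Of the members, 9 rose in the mutant hippocampus and 0 fell at an adjusted p under 0.05, and 27 had a p under 0.05 before adjustment in that limma fit, as did 18.5% of all genes tested. The members that rose were Etnppl, Ndrg2, Acsbg1, S100b, Sparc, Ntsr2, Pla2g7, Hepacam and Atp1b2, by 1.21-fold to 2.33-fold. Among the glutamate transporters, Slc1a2 differed by less than the spread between libraries and Slc1a3 did not pass the test. None of the 9 calls held when Nestin;BrafKE/+ replicate 1 was left out of the fit, where 0 members had an adjusted p under 0.05 and 20 an unadjusted p under 0.05, beside 15.5% of all genes.

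The study sequenced hippocampal mRNA of adult male C57BL/6N mice, with 1 stranded library from each animal. In the 4 Nestin;BrafKE/+ libraries, which the labels give the genotype K499E, 1 Braf allele encodes a RAF kinase with raised activity. Nestin-Cre switches that allele on in embryonic neural stem cells, and the neurons and glia that descend from those cells carry it. The 5 Braf+/+ libraries came from littermate mice with both alleles intact, labelled WT, and the sources used here do not say whether those controls carried Nestin-Cre. By the prefixes of their names the libraries were put into 3 series, called A (84 or 85), B (HPC) and C (NES). Joining the prefixes 84 and 85 was a choice, and the labels do not say what the prefixes mean. Nestin;BrafKE/+ replicate 1 and Braf+/+ replicates 1 to 3 make up series A, Nestin;BrafKE/+ replicates 2 and 3 and Braf+/+ replicate 4 series B, and Nestin;BrafKE/+ replicate 4 and Braf+/+ replicate 5 series C. The comparison asks how the mutant allele changes the transcripts that keep the surroundings of neurons constant.

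Astrocytes take up the glutamate and glycine that neurons release, turn glutamate into glutamine and hand it back, and so end synaptic signals and refill the transmitter pool. Through water channels, cotransporters, ion pumps and gap junctions they buffer potassium, acid and water and pass small molecules from cell to cell and on to their endfeet on blood vessels. They also secrete lipoproteins, protease inhibitors and proteins that act on the formation of synapses. In the hippocampus their fine processes surround many excitatory synapses. Several members are not made by astrocytes alone, since microglia also transcribe Apoe and Cst3, endothelial cells Sparc and Sparcl1, and mature oligodendrocytes S100b. In such bulk tissue, fewer cells of a type and less RNA per cell cannot be told apart.

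Every value below is a normalised count of the deposited table, which the authors had scaled between libraries and adjusted for batches, and the number of reads behind it is unknown. The library totals ran from 19551312 to 20091532 normalised counts, and no gene was at 0 in any library. The log2 fold change sets Nestin;BrafKE/+ against Braf+/+ in a limma fit of log2(normalised count + 1) with series as a term, and the adjusted p is the Benjamini-Hochberg value over all 16196 genes. P-values measure the spread between these libraries, each from its own animal, that remained after the authors' batch adjustment and the series term. Spread that the adjustment had removed is not measured, so the p-values may be too small. Braf itself had 2145 to 2469 normalised counts in Nestin;BrafKE/+ and 2635 to 3030.0 in Braf+/+ (log2 fold change -0.30, adjusted p = 0.0378), which does not read the allele. Choroid plexus transcripts set 2 controls apart, Braf+/+ replicates 2 and 4, with 391543 and 113686 normalised counts summed over 10 choroid plexus and ependyma markers against 1826 to 24869 in the other libraries. With both of them left out, which leaves series B with no control, 1 member passed the threshold, Aqp4 (adjusted p = 0.0382), 20 had an unadjusted p under 0.05 (13.2% of all genes) and the median log2 fold change of the members was 0.19.

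Across the 38 members, 30 were higher and 8 lower in Nestin;BrafKE/+ by the sign of the log2 fold change, a share of 78.9% higher beside 50.1% of all genes tested. The median log2 fold change was 0.19 for the members and 0.00 for all genes, and the median of its absolute size was 0.26 and 0.12. Beside the 9 members that rose (23.7% of 38), 2.88% of all genes passed the threshold, 1.52% of them higher and 1.36% lower in the mutant. The groups did not overlap for 20 members, 17 with every mutant library above every control and 3 with every mutant library below. Over all genes tested, 7.62% had every mutant library above and 8.13% every mutant library below. Because the members were chosen with earlier results of these data known, setting their shares beside those of all genes is no independent test. A further 7 members had an adjusted p between 0.05 and 0.1, of which Aldh1l1, Aqp4, Mlc1, Gjb6 and Cst3 had positive and Chrdl1 and Mfge8 negative differences. Leaving out Braf+/+ replicate 4 left 2 members past the threshold, and leaving out Nestin;BrafKE/+ replicate 3 left 3. With 4 name prefixes in place of the 3 series, 2 members passed, Etnppl (adjusted p = 0.0131) and Gjb6 (0.0261), and with array quality weights 7 passed, S100b (0.0526) and Sparc (0.0596) being lost.

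**Figure D1:**
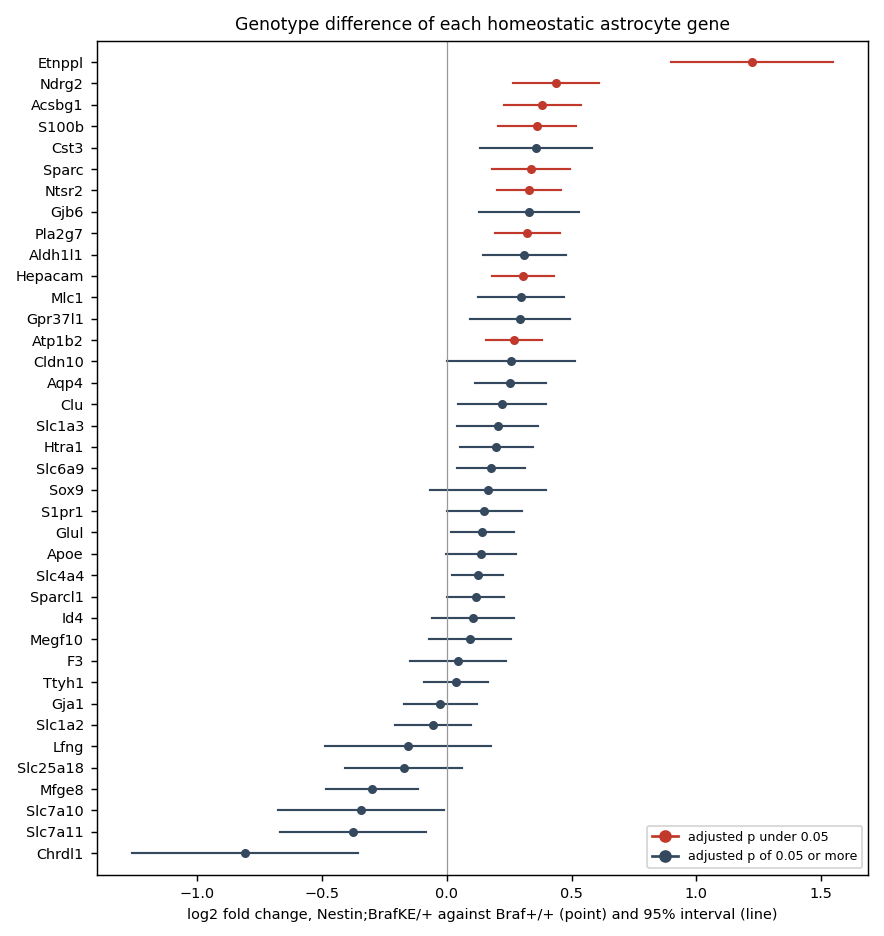
The horizontal axis gives the log2 fold change of each of the 38 members, Nestin;BrafKE/+ (n = 4) against Braf+/+ (n = 5), as a point with its 95% interval as a line, and red marks an adjusted p under 0.05. Etnppl stands at 1.22, the other 8 red points lie between 0.27 and 0.44, and Chrdl1 lies lowest at -0.81 without passing the threshold.

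The 5 enzymes and cytosolic proteins were the role group with the highest share of members past the threshold, 4 of 5. Of all genes tested 2.88% passed, and 7.62% had every mutant library above every control, as all 5 of these did. Etnppl (ENSMUSG00000019232, chr3:130411097-130431441, plus strand) encodes ethanolamine-phosphate phospho-lyase, which breaks down a precursor of membrane phospholipids. In Nestin;BrafKE/+ replicates 1 to 4 its normalised counts were 1013, 852, 899.5 and 692, and in Braf+/+ replicates 1 to 5 they were 401, 346, 298, 350.5 and 453. The lowest mutant library, replicate 4, stood above the highest control, Braf+/+ replicate 5, and both of these belong to series C. Etnppl rose 2.33-fold, from 369.8 ± 59.4 (SD, n = 5) in Braf+/+ to 864 ± 133 (SD, n = 4) in Nestin;BrafKE/+ (log2 fold change 1.22, SE 0.15, adjusted p = 0.00307). Among the 9 fits that each leave out 1 library, the call was lost only without Nestin;BrafKE/+ replicate 1 (adjusted p = 0.0518).

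Ndrg2 (ENSMUSG00000004558, chr14:52142588-52158469, minus strand) is a cytosolic protein of the N-myc downstream-regulated family that is widely used to label astrocytes. Its normalised counts were 17545, 16374, 19183 and 15458 in the mutant replicates and 12094, 13161, 12228, 11720.3 and 13941 in the controls, in replicate order. Every mutant library was above every control, with the narrowest gap again between the series C pair. Ndrg2 rose from 12629 ± 905 (SD, n = 5) in Braf+/+ to 17140.1 ± 1608 (SD, n = 4) in Nestin;BrafKE/+ (log2 fold change 0.44, SE 0.08, adjusted p = 0.0176), and lost the call without Nestin;BrafKE/+ replicate 1 (adjusted p = 0.128) or Braf+/+ replicate 4 (0.122). Acsbg1 (ENSMUSG00000032281, chr9:54510840-54569197, minus strand), an acyl-CoA synthetase that activates long-chain fatty acids, had 3046, 3170.1, 3403 and 2913 in the mutant and 2431, 2330.4, 2497, 2177 and 2577 in the control libraries. Replicate 4 was the lowest mutant library of Acsbg1 and Braf+/+ replicate 4 the lowest control. Acsbg1 rose from 2403 ± 155 (SD, n = 5) in Braf+/+ to 3133 ± 208 (SD, n = 4) in Nestin;BrafKE/+ (log2 fold change 0.38, SE 0.07, adjusted p = 0.0185), and the call was lost without Nestin;BrafKE/+ replicate 1 (adjusted p = 0.0910) or 3 (0.0519) or Braf+/+ replicate 4 (0.105).

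S100b (ENSMUSG00000033208, chr10:76085090-76097159, plus strand) encodes a calcium-binding protein that astrocytes hold in their cytosol and secrete. The mutant libraries had 2401, 2413, 2571 and 2217 and the controls 1778, 1828, 1995, 1731 and 2021 normalised counts, so that all mutant libraries were above all controls, by the least in replicate 4. S100b rose from 1871 ± 130.1 (SD, n = 5) in Braf+/+ to 2401 ± 144 (SD, n = 4) in Nestin;BrafKE/+ (log2 fold change 0.36, SE 0.07, adjusted p = 0.0253). It failed in 5 of the 9 fits that each leave out 1 library, namely those without Nestin;BrafKE/+ replicates 1, 2 and 3 (adjusted p = 0.134, 0.0506 and 0.0713) and without Braf+/+ replicates 1 and 4 (0.0508 and 0.158). Aldh1l1 (ENSMUSG00000030088, chr6:90463409-90577185, plus strand), the folate enzyme whose promoter is used to reach astrocytes in mice, had 1095, 1053, 1181 and 1010.0 in the mutant and 852, 827, 929.9, 824 and 937 in the control libraries. Its groups did not overlap either, yet its log2 fold change of 0.31 (SE 0.08) had an adjusted p of 0.0562. When Nestin;BrafKE/+ replicate 4 or Braf+/+ replicate 5 was left out, Aldh1l1 did pass (adjusted p = 0.0439 and 0.0436). Either leave-out takes series C out of the genotype term, so these are not separate checks. The predicted genes Gm44236, Gm45901 and Gm57001 overlap Aldh1l1 on its own strand, so some of its reads may belong to them.

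**Figure D2:**
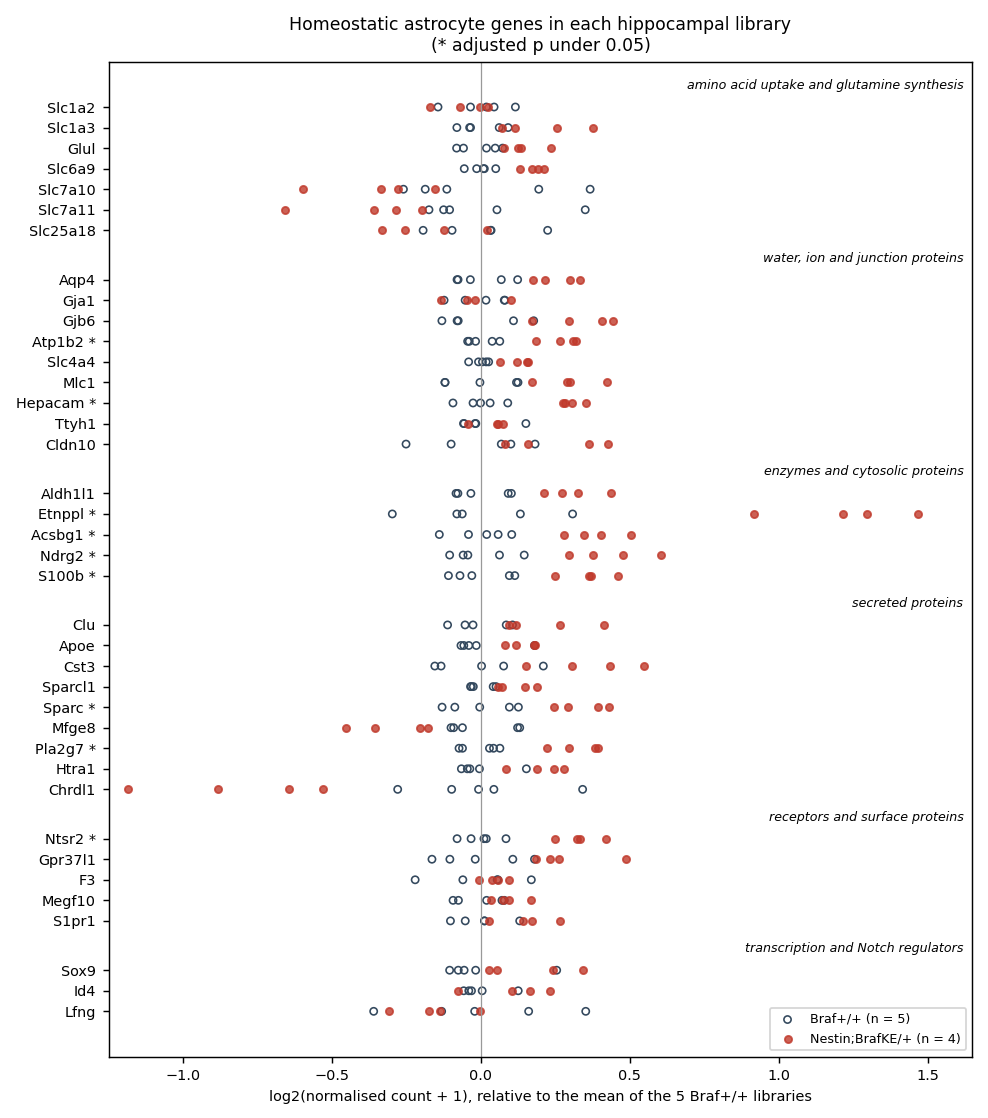
Each point is 1 library, with log2(normalised count + 1) on the horizontal axis relative to the mean of the 5 Braf+/+ libraries, open circles for Braf+/+ (n = 5), red points for Nestin;BrafKE/+ (n = 4), genes grouped by role and a star for an adjusted p under 0.05. The 4 red points of Etnppl, at 692 to 1013 normalised counts, lie to the right of all its open circles, and those of Chrdl1, at 40.2 to 63.8, to the left of all of its own.

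Bases before the transcription start were taken for the 4 members past the threshold with the largest absolute log2 fold change. All 4 are enzymes and cytosolic proteins. They were read 5′ to 3′ on the strand of each gene from the GRCm39 genome, within 150 bases before the start of the Gencode canonical transcript, and only the part that lies in no annotated exon of that gene is given. The bases before Ndrg2 all lie in an annotated exon of another of its transcripts and are not shown. None of the 3 stretches held any of the 4 motifs searched, so none of their bases is in capitals. Etnppl and S100b are on the plus strand and Acsbg1 on the minus strand.
Etnppl chr3:130411019-130411096: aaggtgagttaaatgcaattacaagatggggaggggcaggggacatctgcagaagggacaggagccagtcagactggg
Acsbg1 chr9:54569198-54569311: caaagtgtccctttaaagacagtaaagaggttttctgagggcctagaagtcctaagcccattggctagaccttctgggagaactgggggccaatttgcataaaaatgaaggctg
S100b chr10:76089334-76089476: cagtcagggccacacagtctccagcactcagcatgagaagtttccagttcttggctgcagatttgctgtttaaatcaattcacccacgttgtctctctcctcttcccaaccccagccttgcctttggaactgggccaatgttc

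Of the 9 water, ion and junction proteins, 8 were higher by sign, 2 passed the threshold and 5 had every mutant library above every control. Over all genes tested these last 2 shares were 2.88% and 7.62%. Atp1b2 (ENSMUSG00000041329, chr11:69487651-69496851, minus strand) is the glial beta subunit of the sodium-potassium pump, also known as an adhesion molecule on glia. Its normalised counts were 8893, 8406, 9218 and 9168 in the mutant replicates and 7169, 7725, 7302, 7589.6 and 7195 in the controls. Replicate 2 was the lowest mutant library and still stood above Braf+/+ replicate 2, the highest control. Atp1b2 rose from 7396 ± 248 (SD, n = 5) in Braf+/+ to 8921 ± 372 (SD, n = 4) in Nestin;BrafKE/+ (log2 fold change 0.27, SE 0.05, adjusted p = 0.0208). It too failed in 5 of the 9 fits, without Nestin;BrafKE/+ replicates 1, 3 and 4 (adjusted p = 0.120, 0.0671 and 0.0665) and without Braf+/+ replicates 4 and 5 (0.0668 and 0.0669). Hepacam (ENSMUSG00000046240, chr9:37278621-37299291, plus strand) encodes GlialCAM, which anchors Mlc1 and a chloride channel at contacts between astrocytes. It had 2147, 2113, 2217 and 2101 in the mutant and 1626, 1734, 1848, 1704 and 1774 in the control libraries, a narrow band of mutant values wholly above the controls. Hepacam rose from 1737 ± 82.0 (SD, n = 5) in Braf+/+ to 2145 ± 52.3 (SD, n = 4) in Nestin;BrafKE/+ (log2 fold change 0.30, SE 0.06, adjusted p = 0.0195), and lost its call without Nestin;BrafKE/+ replicate 1 (adjusted p = 0.121) or 3 (0.0632) or Braf+/+ replicate 4 (0.110).

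Aqp4 (ENSMUSG00000024411), the water channel of astrocyte endfeet, had 3946, 3617, 3721 and 4039 normalised counts in the mutant replicates and 3129, 3362, 3034, 3493 and 3041 in the controls. The 4 mutant libraries exceeded every control, and replicate 2 came nearest to them. Its log2 fold change of 0.25 (SE 0.06) had an adjusted p of 0.0633, which was 0.0432 without Braf+/+ replicate 4. Gja1 and Gjb6 encode Cx43 and Cx30, the gap junction proteins of astrocytes. Gja1 (ENSMUSG00000050953, chr10:56253241-56278609, plus strand) had 4396, 4666, 4761 and 5168 in the mutant and 4649, 5099.8, 5092, 4880.0 and 4427 in the control libraries. Mutant replicate 4 was the highest and mutant replicate 1 the lowest of all 9. Gja1 had a fitted log2 difference of -0.03 (95% interval -0.17 to 0.12, adjusted p = 0.879). Gjb6 (ENSMUSG00000040055, chr14:57360757-57371087, minus strand) had 1183, 1429, 1289.9 and 1393 in the mutant and 1133, 1187, 959, 993 and 996 in the control libraries. Mutant replicates 2, 3 and 4 were above all controls, and replicate 1 stood just below Braf+/+ replicate 2. Gjb6 differed by 0.33 on the log2 scale (adjusted p = 0.0827, SE 0.09), and the difference between the 2 connexins was not tested.

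Mlc1, the membrane protein whose loss causes a leukodystrophy with vacuoles, had 3529.5 to 4201 normalised counts in the mutant and 2879 to 3413 in the control libraries, and its log2 fold change was 0.30 at an adjusted p of 0.0727. Mlc1 passed when Nestin;BrafKE/+ replicate 4 or Braf+/+ replicate 5 was left out (adjusted p = 0.0392 and 0.0390), and either leave-out takes series C out of the genotype term. Slc4a4, the sodium bicarbonate cotransporter that regulates pH, had groups that did not overlap and a log2 fold change of 0.12 at an adjusted p of 0.184. Cldn10, a claudin of cell junctions, and Ttyh1, a tweety family membrane protein, had overlapping groups, with log2 fold changes of 0.26 at an adjusted p of 0.271 and 0.04 at an adjusted p of 0.788. Among these 4 the order of the log2 fold changes was Mlc1, Cldn10, Slc4a4 and Ttyh1.

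None of the 7 amino acid transporters and glutamine synthesis genes passed the threshold, and 5 of them had an unadjusted p under 0.05 in the limma fit, beside 18.5% of all genes. Slc1a2 (ENSMUSG00000005089, chr2:102488574-102621129, plus strand), the glutamate transporter GLT-1 that clears most synaptic glutamate, had 66648, 62409.7, 65430.1 and 58288 normalised counts in the mutant replicates and 67597, 66396, 59327, 63988 and 71030.0 in the controls. Mutant replicate 4 was the lowest and Braf+/+ replicate 5, its partner in series C, the highest library, while the other 7 lay between 59327 and 67597. The log2 fold change of Slc1a2 was -0.06 (95% interval -0.21 to 0.10, adjusted p = 0.719). Slc1a3 (ENSMUSG00000005360, chr15:8663604-8741595, minus strand), the transporter GLAST, had 15275, 13433, 16616 and 13845 in the mutant and 12095, 13348, 12486, 12460.5 and 13628 in the control libraries. Mutant replicates 1, 3 and 4 were above all controls and replicate 2 was below Braf+/+ replicate 5. Slc1a3 differed by 0.20 on the log2 scale (adjusted p = 0.169, SE 0.07). Glul (ENSMUSG00000026473, chr1:153775690-153785469, plus strand), which encodes glutamine synthetase, had 31107, 32340.4, 34682 and 32151 in the mutant and 28293, 30989.8, 30459, 27842 and 29845 in the control libraries. All mutant libraries were above all controls, though mutant replicate 1 exceeded Braf+/+ replicate 2 only narrowly. Glul differed by 0.14 on the log2 scale (adjusted p = 0.206, SE 0.06).

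The remaining 4 of this role divided by sign. Slc6a9, the glycine transporter GlyT1, had 759 to 802 normalised counts in the mutant and 666 to 717 in the control libraries, and a log2 fold change of 0.18 at an adjusted p of 0.159. Slc7a11, the cystine-glutamate exchanger xCT, lay wholly below the controls, at 644 to 885 against 901 to 1296, with a log2 fold change of -0.38 at an adjusted p of 0.160. Slc7a10, the exchanger Asc-1 for small neutral amino acids, and Slc25a18, a mitochondrial glutamate carrier, overlapped between groups and had log2 fold changes of -0.34 at an adjusted p of 0.257 and -0.17 at an adjusted p of 0.426. Predicted genes or a microRNA overlap Slc1a3 (Gm37310), Glul (Mir8114) and Slc7a11 (Gm37498, Gm37692 and Gm64697) on the same strand, so part of their reads is uncertain. On the opposite strand 30 of the 38 members overlap some other gene, 7 of the 9 that rose among them, and the sources used here do not say whether the counting used strand.

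Of the 9 secreted proteins, 7 were higher by sign, 2 passed the threshold and 5 had groups that did not overlap, 3 with the mutant higher and 2 with it lower. Over all genes tested 2.88% passed, 7.62% had every mutant library above and 8.13% every mutant library below. Sparc (ENSMUSG00000018593, chr11:55285317-55314067, minus strand), a matricellular protein that restrains synapse formation, had 6851, 6232, 6676 and 6030.1 normalised counts in the mutant replicates and 4789, 5553, 4649, 5075 and 5438 in the controls. All mutant libraries were above all controls. Sparc rose from 5101 ± 394 (SD, n = 5) in Braf+/+ to 6447 ± 381 (SD, n = 4) in Nestin;BrafKE/+ (log2 fold change 0.34, SE 0.07, adjusted p = 0.0330). Its call was lost without Nestin;BrafKE/+ replicates 1, 2 or 3 (adjusted p = 0.199, 0.0505 and 0.0933) and without Braf+/+ replicates 1 or 4 (0.0610 and 0.144). Pla2g7 (ENSMUSG00000023913, chr17:43878846-43923289, plus strand) encodes a secreted phospholipase that inactivates platelet-activating factor. It had 3696, 3285, 3673 and 3457 in the mutant and 2677, 2698, 2944, 2900.5 and 2873 in the control libraries, again with no overlap. Pla2g7 rose from 2819 ± 122 (SD, n = 5) in Braf+/+ to 3528 ± 194 (SD, n = 4) in Nestin;BrafKE/+ (log2 fold change 0.32, SE 0.06, adjusted p = 0.0186), and lost the call without Nestin;BrafKE/+ replicate 1 (adjusted p = 0.143) or 3 (0.0596) or Braf+/+ replicate 4 (0.0668).

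Apoe (ENSMUSG00000002985, chr7:19430034-19434947, minus strand), the main lipoprotein component made by astrocytes, had 30356, 31119, 32474 and 32534 normalised counts in the mutant replicates and 27408, 27589, 32527, 28403 and 27915 in the controls. Braf+/+ replicate 3 stood with the mutant libraries and the other 4 controls below all of them. The log2 fold change of Apoe was 0.14 (SE 0.06, adjusted p = 0.280). Clu (ENSMUSG00000022037, chr14:66190200-66218999, plus strand), the extracellular chaperone clusterin, had 21660.1, 17394, 19584 and 17667 in the mutant and 15064, 15982, 15688, 17266 and 17521 in the control libraries. Mutant replicate 1 was far the highest library, and mutant replicate 2 was below Braf+/+ replicate 5. Clu differed by 0.22 on the log2 scale (adjusted p = 0.168, SE 0.08).

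Cst3, the protease inhibitor cystatin C, had a log2 fold change of 0.36 at an adjusted p of 0.0909, with mutant replicate 4 at 22687 below Braf+/+ replicate 5 at 23645. It passed without either of those libraries (adjusted p = 0.0155 and 0.0157), and either leave-out takes series C out of the genotype term. Sparcl1, the synapse-promoting protein hevin, and Htra1, a serine protease, had log2 fold changes of 0.12 at an adjusted p of 0.264 and 0.20 at an adjusted p of 0.141, without overlap for Sparcl1 and with overlap for Htra1. The 2 secreted members with negative signs lay wholly below the controls. Mfge8, which bridges dying material to phagocytes, had 2081 to 2522 normalised counts in the mutant and 2659 to 3120.1 in the control libraries (log2 fold change -0.30, adjusted p = 0.0876). Chrdl1, a secreted antagonist of bone morphogenetic proteins that astrocytes use to mature synapses, had 40.2, 49.7, 58.9 and 63.8 in the mutant and 95.4, 92.0, 118, 86.4 and 76.1 in the controls. Its log2 fold change of -0.81 (SE 0.21) was the lowest among the members and had an adjusted p of 0.0635, which was 0.0466 without Nestin;BrafKE/+ replicate 4 and 0.0476 without Braf+/+ replicate 5. Both of these leave-outs take series C out of the genotype term.

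All 250 bases before the start of Pla2g7 lie in no annotated exon of that gene, and they are printed because they held matches to 2 of the motifs searched, a choice made after the motif counts were seen. The capitals mark the AP-1 match, which begins 134 bases before the start, and the SOX match, 65 bases before it, read on the plus strand of GRCm39.
Pla2g7 chr17:43878596-43878845: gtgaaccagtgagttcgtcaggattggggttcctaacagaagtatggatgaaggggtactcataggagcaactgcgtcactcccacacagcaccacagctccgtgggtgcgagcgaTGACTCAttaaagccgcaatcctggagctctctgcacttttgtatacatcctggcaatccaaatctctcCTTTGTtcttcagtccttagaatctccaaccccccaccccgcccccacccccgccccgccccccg
Over the 250 bases before the canonical start of each gene, 4 motifs were searched on both strands, a nuclear factor I site (TTGGCA), a SOX site (ACAAAG), an AP-1 site (TGANTCA) and an ETS site (CCGGAAG). No letters of these motifs overlap in Pla2g7. The AP-1 letters were found before 5 of 38 members (13.2%; Sox9, Cldn10, Pla2g7, F3 and Gja1) and 4.54% of the 16133 genes tested that had such a window. The SOX letters were found before 8 members (21.1%) and 13.7% of all, and the nuclear factor I letters before 3 members (7.89%) and 10.4% of all. The ETS letters were found before 0 members and 8.75% of all. Of the 9 members that rose, only Pla2g7 held any of them. Such matches describe letters in these windows and no binding was measured.

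Of the 5 receptors and surface proteins, all 5 were higher by sign and 1 passed the threshold, beside 2.88% of all genes tested. Ntsr2 (ENSMUSG00000020591, chr12:16703383-16710243, plus strand), the low-affinity neurotensin receptor of astrocytes, had 2857, 3038, 2838 and 2695 normalised counts in the mutant replicates and 2297, 2217, 2285, 2146 and 2405 in the controls. The groups did not overlap, with mutant replicate 4 and Braf+/+ replicate 5 nearest to each other. Ntsr2 rose from 2270.1 ± 96.5 (SD, n = 5) in Braf+/+ to 2857 ± 141 (SD, n = 4) in Nestin;BrafKE/+ (log2 fold change 0.33, SE 0.06, adjusted p = 0.0161), and lost the call without Nestin;BrafKE/+ replicate 1 (adjusted p = 0.103) or Braf+/+ replicate 4 (0.104). Gpr37l1, a receptor related to the endothelin receptors, also had groups that did not overlap, and a log2 fold change of 0.29 at an adjusted p of 0.123. S1pr1, a receptor of sphingosine phosphate, Megf10, an engulfment receptor, and F3, tissue factor, which starts coagulation, overlapped between groups. Their log2 fold changes were 0.15 at an adjusted p of 0.275, 0.09 at an adjusted p of 0.544 and 0.04 at an adjusted p of 0.828.

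The 3 transcription and Notch regulators had overlapping groups, and 0 passed, also at an unadjusted p under 0.05 in the limma fit. Sox9 (ENSMUSG00000000567, chr11:112673009-112678586, plus strand), a transcription factor needed for astrocyte fate, had 766, 626, 615 and 714 normalised counts in the mutant replicates and 596, 561, 580.4, 720.1 and 572 in the controls. Braf+/+ replicate 4 stood above the other 4 controls and above mutant replicates 2 and 3 of its own series. Sox9 differed by 0.17 on the log2 scale (adjusted p = 0.441, SE 0.11). Id4, an inhibitor of basic helix-loop-helix factors, and Lfng, which modifies Notch receptors, had log2 fold changes of 0.11 at an adjusted p of 0.494 and -0.16 at an adjusted p of 0.627.

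Within series, the difference of mean log2 values between genotypes could be taken in each of the 3, although series A has 1 mutant, series B 1 control and series C 1 library of each. Of the 38 members 24 were higher in the mutant in all 3 series, 3 were lower in all 3 (Slc7a11, Mfge8 and Chrdl1), and 11 were mixed. The share of all genes with the same sign in all 3 series is not given here, so these counts have no background to be read against. All 9 members that rose were higher in all 3, which follows from their groups not overlapping and is no further support. For Etnppl the differences were 1.55 (A), 1.32 (B) and 0.61 (C), and for Ndrg2 0.49 (A), 0.60 (B) and 0.15 (C). The differences of Pla2g7 were 0.42 (A), 0.26 (B) and 0.27 (C). Sox9 changed sign between series, at 0.40 (A), -0.21 (B) and 0.32 (C), as did Gja1 at -0.17 (A), -0.05 (B) and 0.22 (C). A limma test of the interaction of genotype and series called 0 members and 0.0309% of all genes (5 of 16196). At an unadjusted p under 0.05 it picked 8 members, Sox9, Clu, Etnppl, Cst3, Acsbg1, Gja1, Slc7a11 and Ndrg2, and 8.22% of all genes, and the lowest adjusted p of a member was 0.456, for Sox9.

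**Figure D3:**
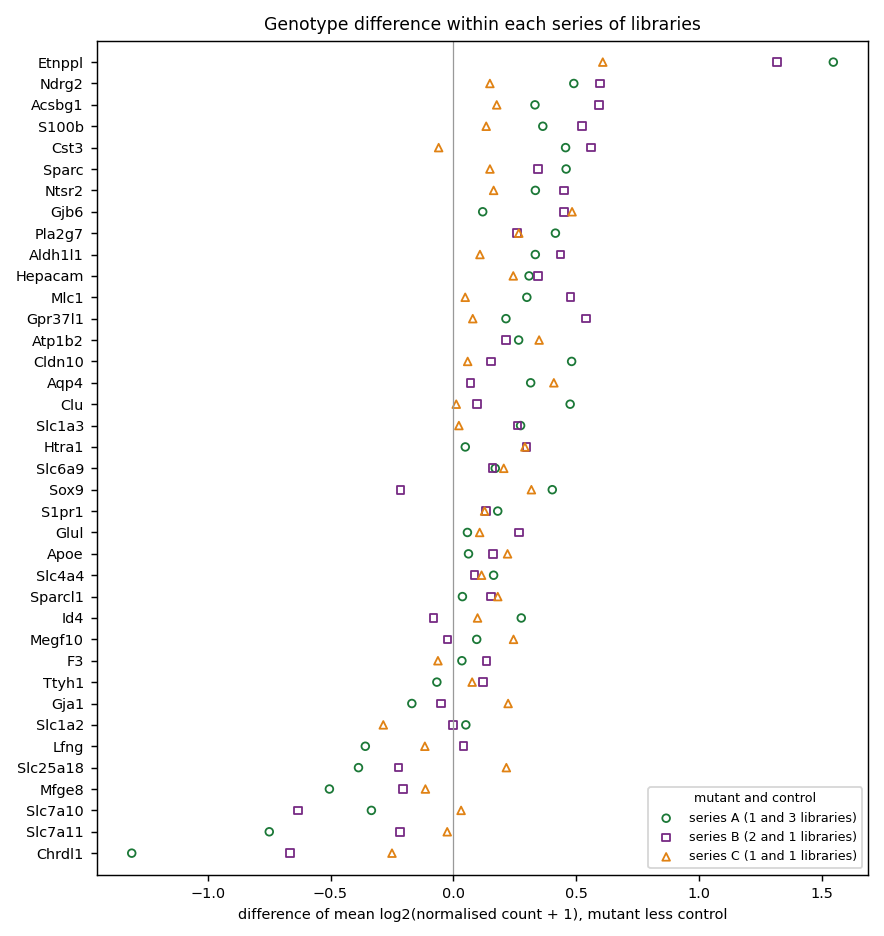
The horizontal axis gives the difference of mean log2(normalised count + 1), mutant less control, within series A (green circles, 1 mutant and 3 controls), B (purple squares, 2 mutants and 1 control) and C (orange triangles, 1 of each), for each of the 38 members in the order of their log2 fold change. The 3 symbols of Etnppl lie at 1.55, 1.32 and 0.61, and those of Chrdl1 at -1.31, -0.67 and -0.25, all on 1 side of the line at 0.

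Divided by the length of the canonical transcript, the members spanned a wide range of levels in the controls. Cst3 was the highest with a mean of 22203 normalised counts per kilobase, followed by Glul with 17304, Apoe with 13191 and Clu with 8978. Sparcl1 had 8419.7, Slc1a2 5461 and Ndrg2 5035. In the mutant Ndrg2, with 6834, stood above Slc1a2, with 5255. Etnppl was next to last with 77.2 per kilobase in the controls and 180.5 in the mutant, and Chrdl1 was last with 22.9 and 13.0. The coefficient of variation between libraries of 1 group had a median over the members of 6.54% in the controls and 6.73% in the mutant, and its highest values were 19.2% for Slc7a10 in the controls and 19.7% for Chrdl1 in the mutant.

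A second list held 40 astrocyte genes that are no members. Of these 32 were higher and 8 lower by sign, with a median log2 fold change of 0.20. In this list 6 passed the threshold, 5 of them higher, beside 2.88% of all genes tested, 1.52% higher. Gfap, the intermediate filament of astrocytes, rose (log2 fold change 0.68, adjusted p = 0.00576), as did the glycolytic enzyme Aldoc (log2 fold change 0.35, adjusted p = 0.0106), the glutathione transferase Gstm1 (log2 fold change 0.35, adjusted p = 0.0237), the fatty acid carrier Slc27a1 (log2 fold change 0.27, adjusted p = 0.0263) and Daam2 (log2 fold change 0.23, adjusted p = 0.0265), a formin of Wnt signalling. Slco1c1, which carries thyroxine across the blood-brain barrier and is made by endothelial cells as well, fell (log2 fold change -0.58, adjusted p = 0.0178). Without Nestin;BrafKE/+ replicate 1 or Braf+/+ replicate 4, 0 of the 40 passed, with 21 and 14 at an unadjusted p under 0.05 (15.5% and 13.4% of all genes), and 3 passed without Nestin;BrafKE/+ replicate 3. The share past the threshold was 9 of 38 for the members and 6 of 40 for this list, and the difference between them was not tested.

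**Figure D4:**
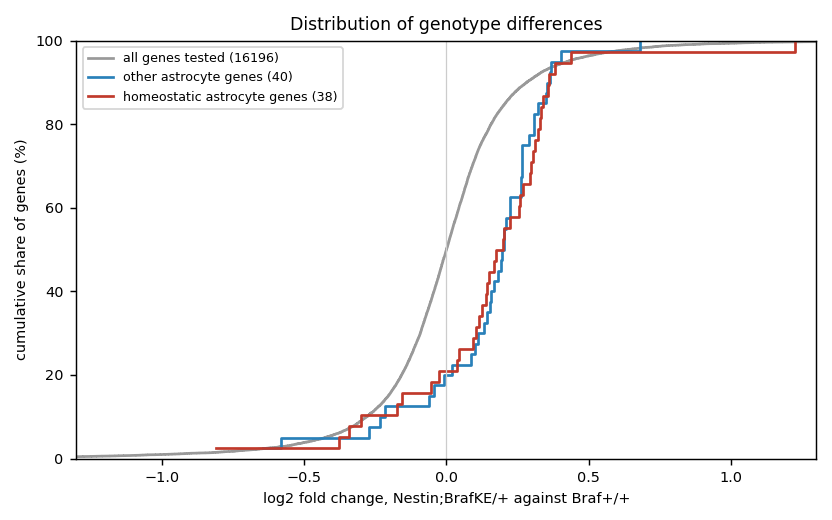
The curves give, for each log2 fold change on the horizontal axis (shown from -1.3 to 1.3), the cumulative share of genes at or below it, for the 38 members (red), the 40 other astrocyte genes (blue) and all 16196 genes tested (grey). The red and blue curves cross the 50% line near 0.19 and 0.20, and the grey curve crosses it at 0.00.

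Partners of the members were taken in 4 lists. Among 21 regulators of astrocyte fate, which include the nuclear factor I genes and the Notch targets Hes1 and Hes5, 0 passed the threshold and 4 had an unadjusted p under 0.05, beside 18.5% of all genes tested, and 9 were higher and 12 lower by sign. Of the 18 tested partners of the glutamate and glycine cycle, such as neuronal transporters and glutaminase, 0 passed and 1 had an unadjusted p under 0.05 (8 higher, 10 lower). Of 21 endfoot, potassium and connexin partners 9 were higher and 12 lower by sign. In this list 4 passed, all higher, beside 2.88% of all genes tested. Among them were Kcnj10, the potassium channel Kir4.1 (log2 fold change 0.32, adjusted p = 0.0178), and Gjc3 (log2 fold change 0.35, adjusted p = 0.0229), a connexin that oligodendrocytes make. Of 24 partners in lipid carriage, engulfment and matrix 16 were higher and 8 lower by sign, and 2 passed, beside the same 2.88%. They were Lcat, which esterifies the cholesterol of lipoproteins (log2 fold change 0.51, adjusted p = 0.00797), and Serpine2, an inhibitor of serine proteases (log2 fold change 0.22, adjusted p = 0.0457). In the 9 fits that each leave out 1 library Serpine2 failed in 7, Gjc3 in 5, Kcnj10 in 3 and Lcat in 1. None of these 4 held without Nestin;BrafKE/+ replicate 1, where their adjusted p-values ran from 0.0871 to 0.179.

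Markers of other cell types were read in the same libraries and the same fit, in which 2.88% of all genes tested passed the threshold. All 12 oligodendrocyte markers were higher by sign and 4 passed, namely Mobp (log2 fold change 0.58, adjusted p = 0.0253), Mog (log2 fold change 0.53, adjusted p = 0.0278), Mag (log2 fold change 0.41, adjusted p = 0.0457) and Cldn11 (log2 fold change 0.39, adjusted p = 0.0177). Their sum ran from 130866 to 141036 normalised counts in the mutant libraries and from 95829 to 116414 in the controls, with no overlap. The 38 members summed to 306302 to 335731 in the mutant and 280016 to 297894 in the controls, likewise with no overlap. None of the 4 oligodendrocyte calls held without Nestin;BrafKE/+ replicates 1 or 3 or without Braf+/+ replicate 4. Of 12 microglia markers 11 were higher by sign, 0 passed and 5 had an unadjusted p under 0.05 (18.5% of all genes), and their sum was 8782 to 9691 in the mutant and 7752 to 8740 in the controls. No marker of any list was at 0 in any library. The part of the oligodendrocyte and microglia markers in the differences of the members was not tested.

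Endothelial and mural markers passed in 0 of 12 cases, with 1 at an unadjusted p under 0.05, and summed to 8216 to 9094 in the mutant and 7362 to 9475 in the controls. Choroid plexus and ependyma markers passed in 0 of 10, with 1 at an unadjusted p under 0.05 and 8 lower by sign, and their sum was 1826 to 24869 in the mutant and 4890 to 391543 in the controls. Among 8 meningeal fibroblast markers 5 were higher and 3 lower by sign. Col1a1 rose (log2 fold change 0.96, adjusted p = 0.0214), and sums were 3970 to 4502 in the mutant and 2502 to 7992 in the controls. Of 10 excitatory neuron markers Wfs1 (log2 fold change 0.61, adjusted p = 0.000371) and Itpka (log2 fold change 0.31, adjusted p = 0.0176) rose and Neurod2 fell (log2 fold change -0.53, adjusted p = 0.0103), while the sums of 129600 to 153409 and 120196 to 138733 overlapped. Of 9 neural stem cell markers tested 3 were higher and 6 lower by sign. Hopx, which hippocampal astrocytes also transcribe, rose (log2 fold change 0.56, adjusted p = 0.00480). The list summed to 3729 to 4380 in the mutant and 3227 to 3753 in the controls, of which Hopx had means of 2046 and 1388. Without Nestin;BrafKE/+ replicate 1 Wfs1 alone among these 5 passed (adjusted p = 0.0125), and Itpka and Col1a1 also failed without Braf+/+ replicate 4. The part of these lists in the differences of the members was not tested either.

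**Figure D5:**
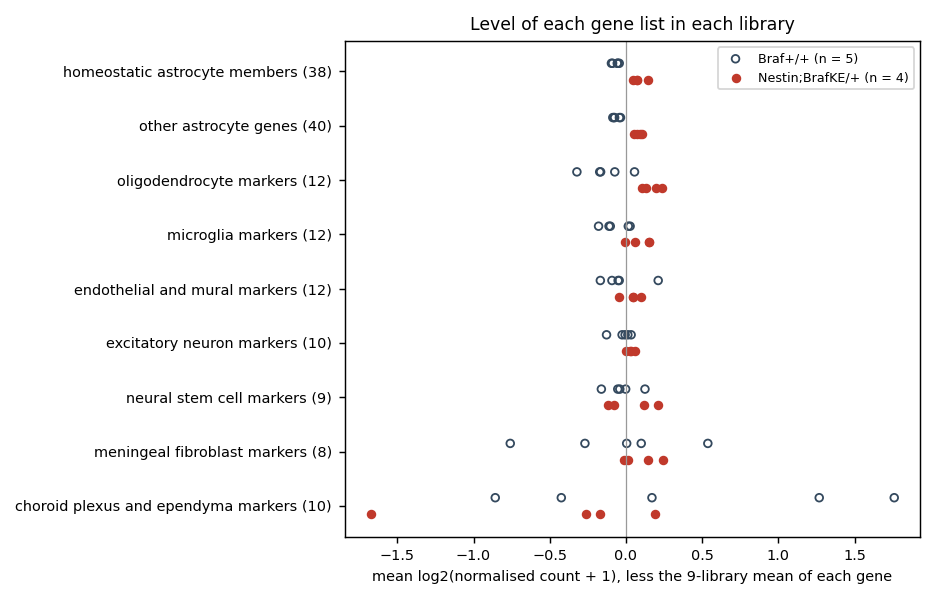
Each point is the level of a gene list in 1 library, the mean over its genes of log2(normalised count + 1) less the mean of that gene over the 9 libraries, with open circles for Braf+/+ (n = 5) and red points for Nestin;BrafKE/+ (n = 4). The members lie from 0.04 to 0.15 in the mutant and from -0.10 to -0.04 in the controls, oligodendrocyte markers from 0.11 to 0.24 and from -0.32 to 0.06, and the choroid plexus and ependyma list spreads most, up to 1.76 in Braf+/+ replicate 2.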

How the data were processed

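Libraries were made from the hippocampus of 4 Nestin;BrafKE/+ and 5 Braf+/+ mice. The authors trimmed reads with Trim Galore, aligned them to GRCm39 with STAR and quantified genes with Salmon (nf-core). They then removed batch differences, without naming the batches, and scaled the table with DESeq2. The deposited values are a signal in normalised counts. In each library 100% of them were whole multiples of 1 step between 0.9934 and 1.004. The whole numbers are not reads, since mt-Co1 has 491938 of them in every one of the 9 libraries, so the depth is unknown and count models were not used.

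Groups were taken from the labels. The test was limma's moderated fit (version 3.58.1, R 4.3.3, lmFit and eBayes with trend) of log2(normalised count + 1) for genes whose mean reached 10, and its terms were genotype and the series of library names. Tests were two-sided with Benjamini-Hochberg adjustment over all genes and a threshold of 0.05. Fold changes on this scale understate those of low genes. The alternatives were other pseudocounts (0.5 and 8), filters, factors from the trimmed mean of M-values (TMM), quantile normalisation, covariates, weights, robust moderation, thresholds and each library left out. Leaving out controls 2 and 4 was added after the data were seen.

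The members and lists were chosen with earlier results of these data known. All members are named. Values by library are given for members past the threshold and for Slc1a2, Slc1a3, Glul, Aqp4, Gja1, Gjb6, Aldh1l1, Sox9, Apoe and Clu, to which Chrdl1 was added after its values were seen. From each companion list at most the 6 genes with the lowest adjusted p under 0.05 are named, and 2 that this rule picks are not reported here. Positions came from Gencode vM39 on GRCm39, in which 18179 of 18275 gene IDs (99.5%) were found. The steps were tested on simulated data that held no series or batch differences. That test says nothing on how far the calls depend on the series or on single libraries. Figures used matplotlib 3.10.9 in Python 3.11.15. The human spheroid libraries were not analysed here.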

Additional observations from a re-analysis of the deposited data

Results flagged for a closer look

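In 76 groups of values, 2 for each of the 38 members, Dixon's criterion marked 1 library as standing apart in 4. Chance marks about 1 group in every 20, so 4 of 76 is near the chance rate. Braf+/+ replicate 3 had 9111 normalised counts of Ttyh1 beside 7880.3 to 8109 in the other 4 controls, and 32527 of Apoe beside 27409 to 28403. Braf+/+ replicate 2 had 3148 of Htra1 beside 2706 to 2822. Braf+/+ replicate 4 had 720.1 of Sox9 beside 561 to 596. None of these 4 members passed the threshold in the comparison of the groups.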

How the results depend on the processing

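The 9 members that rose also passed with both other pseudocounts, with no filter or a minimum mean of 50, with TMM factors, with quantile normalisation and with robust moderation, and each kept its direction in all alternatives. The count of members past the threshold was 2 with 4 name prefixes, 24 without the series term (21 higher, 3 lower), 16 at an adjusted p under 0.1 and 1 under 0.01, and for the 40 other astrocyte genes it was 3, 20, 10 and 1. Over all genes those 4 settings called 165, 2260, 927 and 94, and array quality weights called 258. With replicate numbers as a block in place of series, 19 members (15 higher, 4 lower), 15 other astrocyte genes and 1402 of all genes passed. The correlations of same-numbered libraries were -0.39, -0.08, 0.07 and 0.41, and not every library correlated best with its own number, so the numbers were not taken as pairs. Leaving out 1 library gave 0 to 12 members, 0 to 6 other astrocyte genes and 42 to 371 of all genes. By construction, the fit without Nestin;BrafKE/+ replicate 1 or Braf+/+ replicate 4 takes nothing from series A or B for the genotype term. Without Nestin;BrafKE/+ replicate 4 or Braf+/+ replicate 5 it takes nothing from series C, so both fits give the same log2 fold change. With controls 2 and 4 left out the counts were 1, 0 (14 at an unadjusted p under 0.05, beside 13.2% of all genes) and 58. The median log2 fold change of the members was 0.16 with 4 name prefixes and 0.17 to 0.19 with 1 library left out. Members without overlap numbered 20 to 23, a count that leaving out a library cannot lower by construction. Of 798 single values for members, 8 changed sign, all for members that had not passed. With 1 library left out the log2 fold changes ran from -0.12 to 0.026 for Slc1a2 (highest without Nestin;BrafKE/+ replicate 4 or Braf+/+ replicate 5), -0.11 to 0.067 for Gja1 (highest without Nestin;BrafKE/+ replicate 1), -0.0042 to 0.21 for Id4 (lowest without that library), and -0.0095 to 0.10 for Ttyh1 and -0.0040 to 0.082 for F3 (both lowest without Braf+/+ replicate 4). With controls 2 and 4 left out Gja1 had 0.012 and Ttyh1 -0.018. Except where construction is named, the cause of these shifts was not tested. The number of libraries limits the precision, and since the read depth is unknown its part in the spread could not be measured.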
